A study of Mus musculus with 21 samples.

Results

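Mammary tumours and sorted hematopoietic stem cells (HSC) of sedentary mice were compared at week 12, gene by gene, with 3 tumour and 3 HSC libraries out of the 21 libraries of the series. Both groups came from MMTV-PyMT mice labelled sedentary and week 12, with no further age given, and differed in what was sampled: whole mammary tumour or sorted HSC. In the MMTV-PyMT strain a mammary tumour virus promoter drives the polyomavirus middle T antigen, mainly in mammary epithelium, and the HSC donors carried the transgene too. The labels call the libraries of a group biological replicates, and do not say whether a tumour and an HSC library with the same number came from 1 mouse. RNA was taken from tumours with TRIzol and from HSC with a micro-scale column kit, so tissue, RNA preparation and deposited table change together and cannot be told apart. A large difference means an adjusted p under 0.05 and a fold of at least 8, which is 3 on the log2 scale, and smaller called differences carry the same limit. The 6 libraries of physically active mice at week 12, 3 tumours and 3 HSC of the same strain, served for a second look at the same contrast.

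Mammary tumours of this strain arise from luminal epithelium, the cell layer that lines ducts and makes milk, and contain fibroblasts, vessels, macrophages and other host cells as well. Epithelial cells are bound to each other by cadherins, tight junctions and desmosomes, and carry keratin filaments. Hematopoietic stem cells lack these structures. They are kept by a network of transcription factors that includes GATA, TAL, RUNX and ETS family members, and the progenitors next to them begin to make the granule proteins of neutrophils. In whole tumour RNA, fewer cells of a type and less RNA per cell cannot be told apart.

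Both tables listed 12429 genes under the same symbol, and 12426 of them passed a mean of at least 1 scaled read in either group. A scaled read is a read recovered from the deposited values and divided by the scaling factor of its library. Sedentary tumours held 20838963 to 25764636 recovered reads, and HSC libraries held 16406889 to 58500940, the deepest being replicate 3. Correlations of the log2 values over genes, which are not independent of each other, ran from 0.968 to 0.983 among tumours, from 0.979 to 0.987 among HSC and from 0.651 to 0.674 between the tissues. With limma and Benjamini-Hochberg adjustment, 9069 genes differed, 73.0% of those tested. Of these, 4732 (38.1% of genes tested) were higher in tumour and 4337 (34.9%) higher in HSC. Tumour-high genes made up 52.2% of calls under this scaling and 62.5% when libraries were scaled by their total reads, which moved the median of all genes from 0.05 to 0.35 on the log2 scale. The groups did not overlap at 9721 genes (78.2%).

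Large differences were less balanced. There were 1608 genes at least 8-fold higher in tumour (12.9% of genes tested) and 397 at least 8-fold higher in HSC (3.19%). At 32-fold or more the counts were 766 and 104, and at 1024-fold or more they were 44 and 3. When a fold of 8 was itself made the null hypothesis of the limma test, 948 and 200 genes remained past the threshold. The scatter of group means shows a wide cloud of tumour-high genes at the left, where HSC held few or no reads, and a smaller set of HSC-high genes at the lower right.

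**Figure D1:**
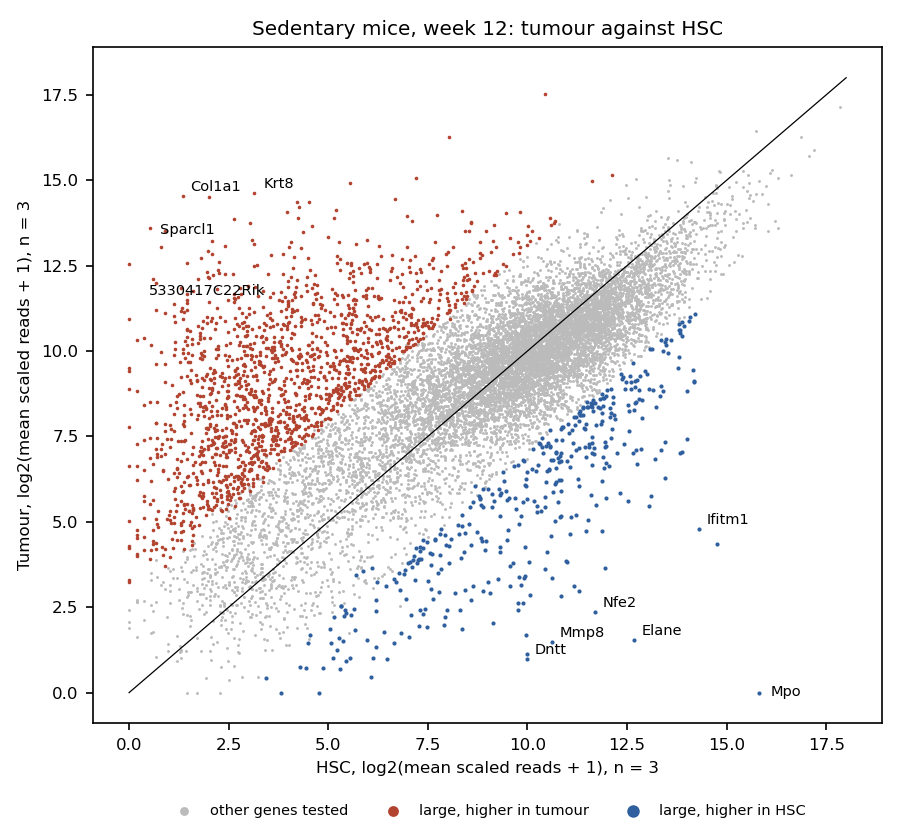
Each point is 1 of 12426 genes, with log2(mean scaled reads + 1) of 3 HSC libraries on the x axis and of 3 tumours on the y axis. Red and blue points are the 1608 and 397 genes with an adjusted p under 0.05 and a fold of at least 8; the line marks equal values, and Mpo lies on the x axis because no tumour read was recovered.

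Ranked by size of difference among genes whose higher tissue averaged 500 scaled reads or more, the tumour side was led by Col1a1, Sparcl1, Stac2, Krt8, Plet1, Sorbs2, Col6a1 and 5330417C22Rik. Col1a1, the main chain of type I collagen (chr11:94936224-94953042 in mm10), had 14704, 37670 and 19241 scaled reads in tumour replicates 1 to 3 and 0, 1.54 and 3.08 in the HSC libraries. Col6a1, a chain of type VI collagen, had 3048, 9036 and 5874 in tumours and 0 reads in all 3 HSC libraries, which makes it at least 7369.7-fold higher in tumour against a floor of 3 reads over the HSC group. Replicate 1 was the lowest tumour for both collagens, and even so stood far above every HSC library. Sparcl1, a secreted matrix-associated protein, was covered by 3 reads over all HSC libraries. With the reads of each tissue summed and divided by its summed scaling factors, the ratio of tumour to HSC was 15283, with a 95% exact counting interval of 5229 to 74113. For 5330417C22Rik, with 1 HSC read, the ratio of summed reads taken in this way was 15639, with a 95% exact counting interval of 2806 to 617774. The next gene below these 8 was Krt19, with a log2 difference of 11.61 against 11.63 for the last one inside. The difference of Krt8 depended on which HSC library was left out and was 11.71 without HSC replicate 2 and 13.79 without HSC replicate 3. That of Krt19 was 12.40 without HSC replicate 3.

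The HSC side was led by Mpo, Elane, Gm6793, Mmp8, Ifitm1, Nfe2, Gm12070 and Dntt. Mpo, the myeloperoxidase of neutrophil granules (chr11:87793581-87804413), had 58788, 45730 and 66836 scaled reads in the HSC libraries and no read in any tumour, at least 60987-fold higher in HSC. Ifitm1, a small interferon-inducible membrane protein, had 24457, 19534 and 16576 in HSC and 12.6, 41.3 and 25.3 in tumours. Nfe2, a transcription factor of the megakaryocyte and erythroid lineages, had 3129, 3015 and 3735 in HSC and 5.71, 3.03 and 3.61 in tumours. Dntt, the DNA polymerase that adds untemplated bases at antigen receptor joints, was covered by 3 tumour reads, and the ratio of HSC to tumour reads, summed and scaled in the same way, was 1083, with a 95% exact counting interval of 370.4 to 5255. Gm12070 is annotated as a processed pseudogene, and neither it nor Gm6793 can be separated here from near-identical copies, so their values are uncertain. The next gene below was Hmga2, at -8.72 against -9.12 for Dntt. Leaving out 1 library moved Mmp8 to -10.57 without tumour replicate 3, Gm12070 to -9.94 without tumour replicate 3 and Hmga2 to -9.51 without tumour replicate 1 and -8.11 without tumour replicate 2.

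The label of the sorted cells was checked against 8 markers of stem and progenitor cells. Cd34, a surface sialomucin of progenitors, had 15375, 15719 and 12575 scaled reads in HSC and 1153, 1481 and 1769 in tumours, far higher in every HSC library. Gata2, a stem cell transcription factor, had 1532, 1609 and 2352 in HSC and 50.2, 60.5 and 65 in tumours. Its partner Tal1 is described with the other factors below. Slamf1 and Procr, surface markers of the most primitive cells, were read at low levels in HSC, at 41.2, 44.7 and 42.2 for Slamf1. Procr had 68.1, 105 and 63.3 in HSC and 38.8, 54.5 and 47.9 in tumours, close to each other but without overlap. Kit, Hlf and Ly6a did not separate the tissues in favour of HSC. Kit, the stem cell factor receptor, had 4438, 4920 and 5662 in HSC and 18753, 8033 and 8763 in tumours, higher in every tumour than in any HSC library. Hlf, a transcription factor of stem cells, had 593, 696 and 628 in HSC and 1773, 1653 and 2304 in tumours, again with no overlap. Ly6a, the Sca-1 antigen, did overlap, with 1435, 1156 and 897 in HSC and 1002, 1516 and 1528 in tumours. All 8 markers were therefore read in the HSC libraries, while granule, lymphoid and cell cycle genes described below were read there as well.

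**Figure D2:**
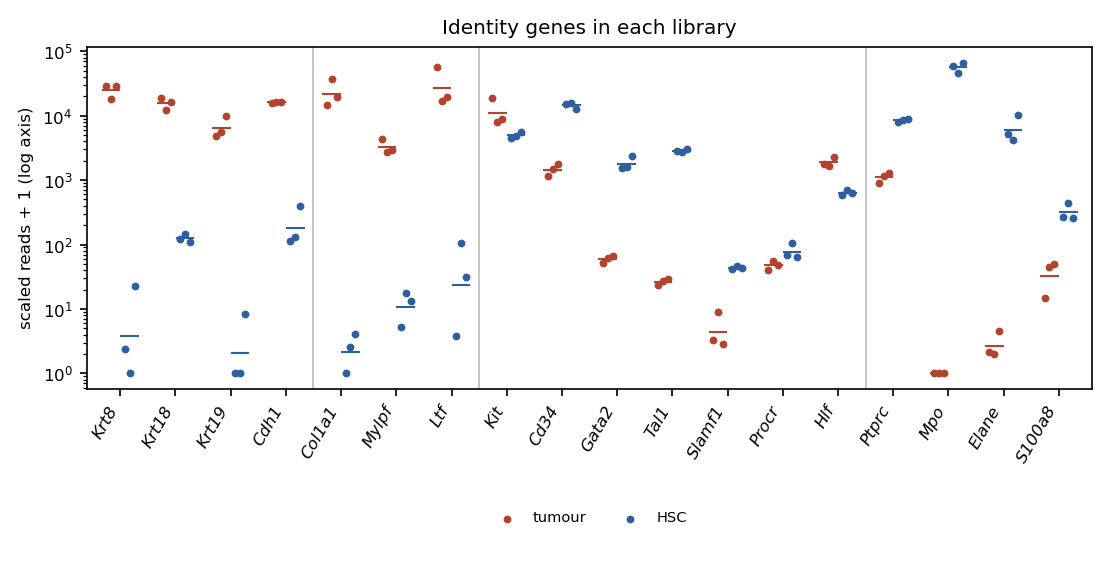
Scaled reads + 1 on a log axis for 18 genes in the 3 tumours (red) and 3 HSC libraries (blue) of sedentary mice, with points in replicate order and a line at the geometric mean. Krt8 to Ltf are high in tumours and Gata2, Tal1, Ptprc, Mpo and Elane in HSC, whereas the points for Kit and Hlf lie higher in tumours and those for Procr lie close together.

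The 32 gene lists used below hold 644 different genes, of which 480 are in both tables. Of these 480 genes, 148 had a large difference higher in tumour and 67 one higher in HSC. The plot of all lists orders them by their median log2 difference, from stem cell transcription factors at -3.68 to skeletal muscle at 8.04, against 0.05 over all genes tested.

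**Figure D3:**
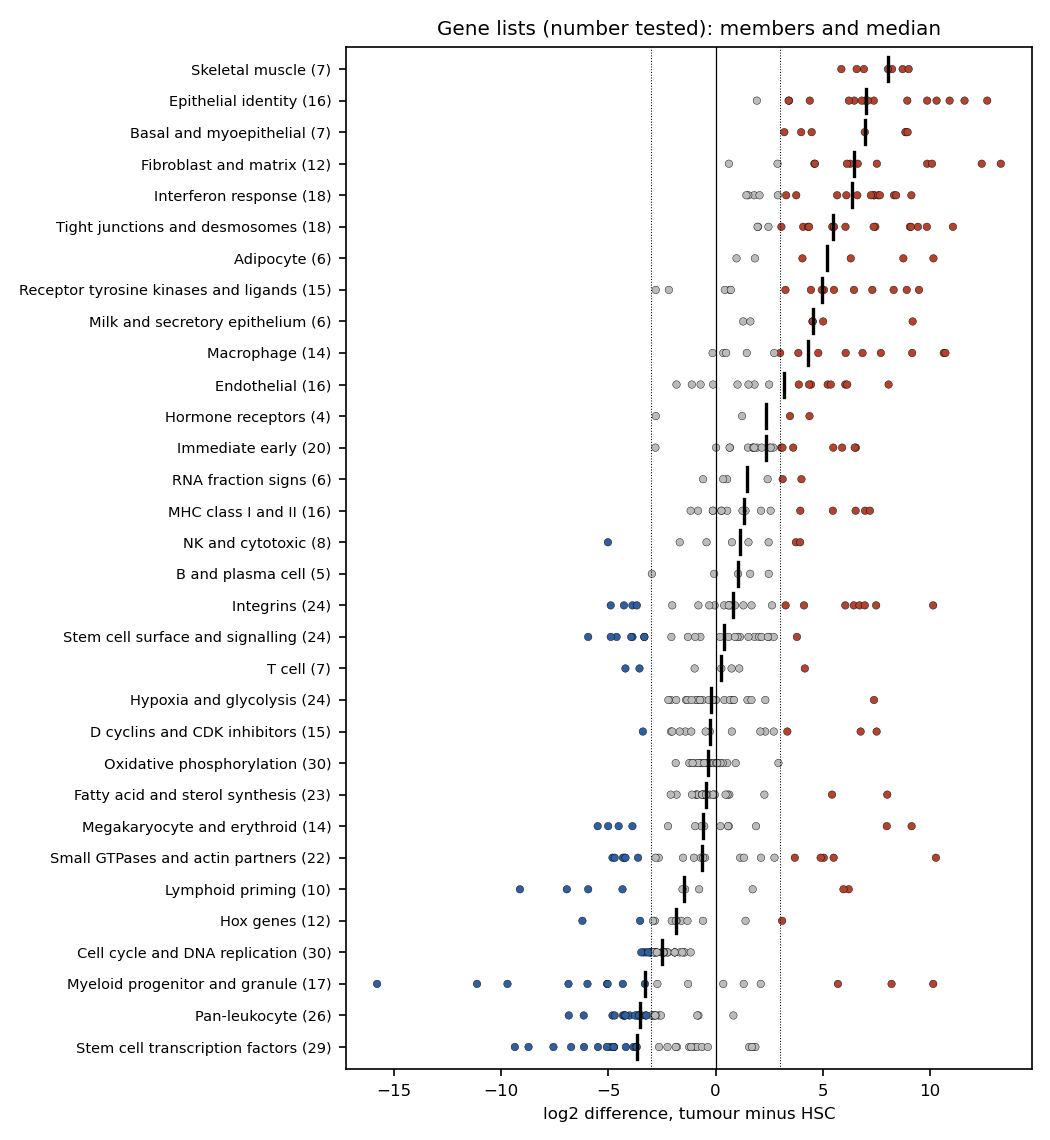
Each row is a gene list with the number of its genes tested, each point is the log2 difference (tumour minus HSC) of 1 gene, and the black bar is the median of the list. Red and blue points are large differences higher in tumour or HSC, grey points are all others, and dotted lines mark 3 and -3. Muscle, epithelial, matrix and interferon lists lie to the right, and stem cell transcription factors and pan-leukocyte genes to the left. The median of oxidative phosphorylation lies just left of 0, at -0.36.

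Epithelial identity genes were higher in tumour throughout. All 16 tested were called, 15 of them large, with a median of 7.03. Krt8, a keratin of simple epithelia (chr15:101996698-102004482), had 28684, 18338 and 29103 scaled reads in tumours and 1.42, 0 and 22 in HSC, a log2 difference of 12.67 ± 1.12 (SE) at an adjusted p of 0.000139 by limma. Krt18, its filament partner, had 18840, 12417 and 16188 in tumours and 121, 146 and 107 in HSC. The HSC values were low but not 0 for Krt18, and all 3 lay within a narrow range. Tfap2b, an AP-2 transcription factor of luminal cells, had 1823, 2412 and 1634 in tumours and no read in HSC, at least 2356-fold higher in tumour. Its relative Tfap2a had 2334, 2263 and 2247 in tumours and 0, 0 and 4.84 in HSC. Cdh1, the cadherin of epithelial contacts, had 15836, 16166 and 16116 in tumours, nearly the same in each, against 114, 131 and 392 in HSC, where replicate 3 was the highest. Epcam, an epithelial adhesion protein, and Gata3, a luminal transcription factor, differed by 9.86 and 7.10 on the log2 scale, and Epcam by 9.26 without HSC replicate 2. Spint1, a protease inhibitor, was the 1 member short of a large difference, with 2100, 1626 and 1975 in tumours and 406, 327 and 922 in HSC.

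Junction genes followed the same direction. All 18 tested were higher in tumour, 15 of them large, with a median of 5.49. Cldn4, a tight junction claudin, had 5772, 3453 and 3985 scaled reads in tumours against 0, 0 and 7.04 in HSC. Pkp1, a desmosome plaque protein, had 4698, 1400 and 1271 in tumours and 2.84, 0 and 1.76 in HSC, with replicate 1 the highest tumour. Dsp, the desmosome linker to keratin, had 10150, 2693 and 2341 in tumours, and replicate 1 again led, its log2 difference being 6.06 with all libraries and 5.39 without tumour replicate 1. Cldn1, another claudin, had 5497, 599 and 2170 in tumours, and its log2 difference was 9.44 with all libraries, 8.71 without HSC replicate 1, 10.07 without HSC replicate 3, 8.70 without tumour replicate 1 and 10.28 without tumour replicate 2. Tjp1, a scaffold protein of tight junctions that many cells express, was called but differed by 1.98. HSC still had 958, 1287 and 1412 scaled reads of it.

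Basal and myoepithelial genes, which mark the contractile outer layer of mammary ducts, were higher in tumour at all 7 genes tested, all large. Acta2, smooth muscle actin, had 3227, 12376 and 9898 scaled reads in tumours and 12.8, 10.8 and 22 in HSC. Oxtr, the oxytocin receptor through which milk ejection works, had 473, 2708 and 2520 in tumours and 0, 4.62 and 4.84 in HSC. Both were lowest in tumour replicate 1. Fibroblasts and vessel walls express some of these genes as well. Of 6 milk and secretory genes tested, 5 were higher in tumour, 4 of them large, and Lpo was not called. Folr1, a folate receptor of secretory epithelium, had 1114, 1983 and 1653 in tumours and 2.84, 1.54 and 0.88 in HSC. Xdh, an enzyme of the milk fat globule, had 7485, 17778 and 9710 in tumours and 308, 271 and 453 in HSC. The caseins and Lalba are listed in the tumour table only. Csn3, kappa-casein, had 227614, 127141 and 186491 there, and Lalba, the milk protein alpha-lactalbumin, had 17504, 4794 and 12841. With all libraries, Acta2 and Oxtr differed by 8.89 and 8.85. These became 9.49 without tumour replicate 1 for Acta2, and 8.02 without HSC replicate 1 and 9.70 without tumour replicate 1 for Oxtr.

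Receptor tyrosine kinases and their ligands were mostly, but not all, tumour-high. Of 15 tested, 11 were higher in tumour, 10 of them large, 2 were higher in HSC and 2 were not called. Among the receptors, Ddr1, which binds collagen, had 6301, 5525 and 5471 scaled reads in tumours and 4.26, 6.16 and 12.8 in HSC. Ephb4 and Erbb3, an ephrin receptor and a partner of ERBB2, differed by 7.31 and 5.52 on the log2 scale. Igf1r, the receptor of insulin-like growth factors, went the other way, with 393, 506 and 358 in tumours and 2050, 2712 and 4277 in HSC. Among the ligands, Fgf1, a fibroblast growth factor, had 865, 1038 and 1298 in tumours and 0, 1.54 and 3.08 in HSC. Hgf, the ligand of Met, had 49.1, 66.6 and 53.3 in tumours and 206, 234 and 349 in HSC. Both HSC-high members, Igf1r and Hgf, stayed short of a large difference. Met itself was not called, with 3017, 2450 and 2734 in tumours and 1746, 1906 and 2481 in HSC, and Hbegf was not either. Of 4 genes tested in the hormone receptor list, not all of them receptors, Pgr and Greb1 had large differences toward tumour, 4.38 and 3.47. Esr1, the oestrogen receptor, was called at 1.24, and Tnfsf11 was higher in HSC at -2.79 with no more than 28.6 scaled reads in any library. These low genes rested on single libraries in part. Pgr differed by 3.71 without HSC replicate 2 and 5.18 without HSC replicate 3, Greb1 by 4.40 without tumour replicate 1 and Tnfsf11 by -1.87 without tumour replicate 1.

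Fibroblast and matrix genes were higher in tumour at 11 of 12 tested, 10 of them large, with a median of 6.45. Sparc, a matrix protein of fibroblasts and vessels, had 11514, 27026 and 24036 scaled reads in tumours and 11.4, 20 and 21.1 in HSC. Col1a2, the second chain of type I collagen, had 13252, 31589 and 18886 in tumours and 17, 13.9 and 35.2 in HSC. As with Col1a1, replicate 1 was the lowest tumour and replicate 2 the highest. Pdgfrb, a receptor of pericytes and fibroblasts, was not called, with 736, 1246 and 896 in tumours and 395, 592 and 965 in HSC. Col3a1, listed in the tumour table only, had 22028, 43835 and 31060. Adipocyte genes were higher in tumour at all 6 tested, 4 of them large. Car3, a carbonic anhydrase abundant in fat and muscle, had 17556, 14804 and 19636 in tumours and 18.5, 16.9 and 8.8 in HSC. Plin4, a lipid droplet protein, had 1671, 1809 and 2669 in tumours and 2.84, 6.16 and 2.64 in HSC.

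Skeletal muscle genes had the highest median of all lists. All 7 tested were higher in tumour, all large. Ttn, the giant sarcomere spring titin, had 10290, 4313 and 7265 scaled reads in tumours and 7.1, 12.3 and 21.1 in HSC. Mylpf, a myosin light chain of fast muscle, had 4384, 2684 and 2883 in tumours and 4.26, 16.9 and 12.3 in HSC. Actn3, the actin crosslinker of fast fibres, had 6393, 2825 and 4634 in tumours and 14.2, 15.4 and 17.6 in HSC. Replicate 1 was the highest tumour and replicate 2 the lowest at all 3 genes. Another 13 muscle genes are listed in the tumour table only, among them Myh4, a fast myosin heavy chain, with 39628, 14630 and 28427, and Acta1, skeletal actin, with 24091, 11925 and 18263. RNA of skeletal muscle genes was therefore read in all 3 sedentary tumours, and its part in other tumour-high genes was not tested.

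Endothelial genes were split. Of 16 tested, 12 were higher in tumour, 8 of them large, 3 were higher in HSC and 1 was not called. Aplnr, the apelin receptor of vessels, had 465, 525 and 554 scaled reads in tumours and 0, 1.54 and 1.76 in HSC. Cdh5, the cadherin of endothelial contacts, had 1032, 885 and 929 in tumours and 12.8, 12.3 and 15 in HSC. Pecam1, Eng and Egfl7 were the HSC-high members. Pecam1, an adhesion protein of vessels and blood cells, had 1078, 1062 and 1071 in tumours and 3444, 3491 and 4514 in HSC. Eng, a TGF-beta co-receptor found on both, had 838, 923 and 860 in tumours and 1511, 1516 and 1239 in HSC. None of these 3 reached a large difference. Tie1 overlapped between the tissues.

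Macrophage genes were higher in tumour at 11 of 14 tested, 9 of them large, with a median of 4.32. C1qb, a chain of complement C1q made by tissue macrophages, had 2244, 2754 and 2987 scaled reads in tumours and 0, 0 and 3.52 in HSC. Its partner C1qc had 2043, 2371 and 2713 in tumours and 0, 0 and 1.76 in HSC. Csf1r, the receptor that macrophages and their progenitors depend on, was not called, with 1777, 2449 and 2872 in tumours and 1671, 1624 and 2186 in HSC. Cd68 and Mrc1 also overlapped between the tissues. Lyz2, a lysozyme of myeloid cells, was called although HSC replicate 3, at 5151, exceeded tumour replicate 1, at 5105. The same HSC library was the highest at Cd74 and the 3 class II genes below.

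Of 16 antigen presentation genes, 9 were higher in tumour, 5 of them large, 1 was higher in HSC and 6 were not called. All 5 large members belong to the class II pathway. H2-Aa, H2-Ab1 and H2-Eb1, the chains of class II molecules, differed by 6.97, 6.53 and 7.20 on the log2 scale, with the reservation that related H2 genes share sequence. Cd74, the class II chaperone, had 9513, 13488 and 18981 scaled reads in tumours and 226, 163 and 750 in HSC. Ciita, the activator of class II genes, had 323, 504 and 598 in tumours and 25.6, 7.7 and 114 in HSC. Class I genes were short of a large difference. H2-K1 had 21840, 30470 and 45615 in tumours and 13625, 11554 and 10607 in HSC. Psmb8, an immunoproteasome subunit, was the HSC-high member, with 1938, 2214 and 2471 in tumours and 6414, 4991 and 3708 in HSC. HSC replicate 3 lowered the class II differences. H2-Eb1, at 7.20 with all libraries, had 6.30 without HSC replicate 2 and 8.07 without HSC replicate 3. Ciita, at 3.95, had 3.05 without HSC replicate 2 and 4.90 without HSC replicate 3, and Cd74, at 5.47, had 6.12 without HSC replicate 3. H2-Aa and H2-Ab1 went from 6.97 and 6.53 to 7.61 without HSC replicate 3, and 7.22 without HSC replicate 3.

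Cd3e and Cd79a, which define T and B cells, were low in tumours and are not listed in the HSC table, while some other genes of lymphocyte lists were read in HSC. Of 7 T cell genes tested, Cd2 was large toward tumour and Cd28 and Lat large toward HSC. Cd28, a costimulatory receptor, had 166, 148 and 367 scaled reads in HSC and 5.71, 16.1 and 11.7 in tumours. Defining T cell genes Cd3d, Cd3e and Cd3g are listed in the tumour table only, with at most 37.3 in any sedentary tumour. B cell genes Cd79a and Ms4a1 were at most 25.2 there and are likewise not in the HSC table. Also in the tumour table only, Ighm had 457, 393 and 479, Jchain 21.7, 96.8 and 8.13 and Pax5 22.8, 35.3 and 17.2. Of 5 B and plasma cell genes tested, 1 was called in each direction and none was large, although 1 was without tumour replicate 2, HSC replicate 2 or HSC replicate 3. Among 8 NK and cytotoxic genes, Nkg7, a granule membrane protein, was large toward HSC with 1167, 1169 and 1573 in HSC and 33.1, 44.4 and 39.7 in tumours, and Klrk1 and Ccl5 were large toward tumour at no more than 83.7 scaled reads in any library. On the log2 scale Cd2, at 4.16 with all libraries, was 3.42 without HSC replicate 2, and Klrk1, at 3.74, was 4.50 without HSC replicate 3.

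On the HSC side, transcription factors of the stem cell network had the lowest median of all lists. Of 29 tested, 22 were higher in HSC, 15 of them large, 3 were higher in tumour and 4 were not called. Myb, a factor that hematopoietic progenitors need (chr10:21124935-21160984), had 10581, 10727 and 12601 scaled reads in HSC and 169, 154 and 155 in tumours, a log2 difference of -6.13 ± 0.12 (SE) at an adjusted p of 3.32e-06 by limma. Tal1 had 2784, 2689 and 3037 in HSC and 22.8, 26.2 and 28 in tumours. Gfi1, a repressor of granulocyte development, had 1073, 898 and 1227 in HSC and 1.14, 5.04 and 12.6 in tumours. The values of each of these genes lay close together in the 3 HSC libraries. Hmga2, a chromatin protein of fetal and self-renewing cells, had 1052, 1126 and 808 in HSC and 5.71, 0 and 0.903 in tumours. Lmo2, which bridges Tal1 to GATA factors, had 10049, 10103 and 10575 in HSC and 220, 576 and 428 in tumours. Spi1, the myeloid factor PU.1, had 4496, 4129 and 5061 in HSC and 325, 316 and 435 in tumours. Other members were read at high levels in both tissues. Runx1, a core binding factor, had 1320, 2179 and 1623 in tumours and 2624, 2935 and 4703 in HSC. Etv6, an ETS repressor, had 3466, 3980 and 3417 in tumours and 7402, 7756 and 8820 in HSC, and both genes were short of a large difference. Hlf and Mllt3 were higher in tumour, by 1.57 and 1.86. Gfi1, at a log2 difference of -7.56 with all libraries, was -6.86 without tumour replicate 1 and -8.19 without tumour replicate 3, and Hmga2, at -8.72, was -9.51 without tumour replicate 1 and -8.11 without tumour replicate 2.

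Of 12 Hox genes tested, 8 were higher in HSC and 2 higher in tumour. Hoxa9, a factor that drives self-renewal of progenitors, had 1769, 1663 and 1235 scaled reads in HSC and 33.1, 8.07 and 28 in tumours. Hoxa7 had 548, 471 and 389 in HSC and 29.7, 31.3 and 66.8 in tumours. These 2 were the large HSC-high members, and Hoxa10 came close at -2.92. Without tumour replicate 1, 5 Hox genes instead of 3 were large. The tumour-high members were of the B cluster. Hoxb2 had 35.4, 83.7 and 56 in tumours and 15.6, 3.08 and 3.08 in HSC. Hoxb3 had 130, 146 and 102 in tumours and 39.8, 75.5 and 33.9 in HSC. Hoxb4, of the same cluster, was higher in HSC, with a log2 difference of -1.31. Another 15 Hox genes are listed in the tumour table only, with Hoxc8 at 49.1, 117 and 97.5 and Hoxd8 at 94.7, 71.6 and 111. The log2 difference of Hoxa9 was -6.21 with all libraries and -5.61 without tumour replicate 2. That of Hoxb2 was 3.10 and 3.79 without HSC replicate 1.

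Stem cell surface and signalling genes did not move as a block. Of 24 tested, 11 were higher in HSC, 7 of them large, 11 were higher in tumour, 1 of them large, and the median was 0.41. Beside these stand 34.9% and 38.1% of all genes called in the same directions, and 3.19% and 12.9% large. Flt3, the receptor of early lymphoid and myeloid progenitors, had 2059, 2348 and 2108 scaled reads in HSC and 32, 33.3 and 37.9 in tumours. Itga4, an integrin that holds progenitors in marrow, had 8126, 9319 and 11450 in HSC and 247, 356 and 377 in tumours. Cd27, a receptor of the TNF receptor family, had 1224, 1279 and 921 in HSC and 55.9, 60.5 and 27.1 in tumours. Pdzk1ip1, a membrane protein known from stem cells and from epithelia, was the large tumour-high member, with 387, 386 and 518 in tumours and 31.2, 20 and 42.2 in HSC. Tek, Fgd5, Esam and Vwf, which vessels also express, were higher in tumour by 1.82, 2.03, 1.02 and 1.53.

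Granule and myeloid progenitor genes ran in both directions. Of 17 tested, 11 were higher in HSC, 9 of them large, and 5 higher in tumour, 3 of them large. For all genes tested, 34.9% were called higher in HSC and 38.1% higher in tumour, and 3.19% and 12.9% were large. Elane and Prtn3, the serine proteases of primary granules, are neighbours on chromosome 10 (chr10:79886247-79888215 and chr10:79874476-79883174). Elane had 5185, 4132 and 10308 scaled reads in HSC and 1.14, 1.01 and 3.61 in tumours. Prtn3 had 16838, 12070 and 14834 in HSC and 78.8, 157 and 152 in tumours. Prtn3 was thus read in tumours at a low level where Mpo was not read at all. Per kilobase of exon, the HSC means were 19669 for Mpo, 6648 for Elane and 5577 for Cd34. Mmp8, the collagenase of neutrophils, had 1542, 1263 and 1904 in HSC. S100a8, a calprotectin subunit, had 270, 448 and 256 in HSC and 13.7, 44.4 and 48.8 in tumours. The other subunit, S100a9, differed by -5.97 on the log2 scale. Ctsg, a granule protease listed in the HSC table only, had 13297, 9336 and 13131 there. Ms4a3, a membrane protein of granulocyte progenitors, had 9794, 7460 and 7298 in the same table.

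The 3 granule genes with large differences toward tumour were Ltf, Lcn2 and Mmp9. Lcn2, a siderophore-binding protein, had 105572, 71002 and 59049 scaled reads in tumours and 268, 205 and 308 in HSC. Ltf, the iron-binding protein lactoferrin, had 56038, 17009 and 19608 in tumours and 2.84, 103 and 30.8 in HSC. Mammary epithelium secretes both proteins too. Lcn2 is the more abundant per kilobase, at 85837 in tumours against 11026 for Ltf. Replicate 1 was the highest tumour for both. Mmp9, a gelatinase, had 105, 94.8 and 99.3 in tumours and 0, 6.16 and 0 in HSC. Genes of mature neutrophils differed among themselves in HSC. Camp, a granule peptide, had 2.84, 13.9 and 7.48 and Ngp, a secondary granule protein, 72.4, 259 and 158 in the HSC table. Mmp8, S100a8 and S100a9 above were higher in HSC than in tumours. Retnlg went the other way, with a log2 difference of 2.11 toward tumour. It was short of a large difference and smaller without tumour replicate 2. The part of neutrophil RNA in either tissue was not tested. The HSC libraries set the size of 2 of these differences. Ltf, at 10.15 with all libraries, was 8.84 without HSC replicate 1 and 11.23 without HSC replicate 2. Mmp9, at 5.71, was 6.77 without HSC replicate 2 and 5.10 without HSC replicate 3.

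The upstream sequences of Mpo, Elane and Prtn3, which share this HSC-high pattern, are printed beside that of Krt8, which has the opposite one, and were chosen after the values were seen. They come from the 250 bases before the RefSeq transcription start in GRCm38.p6, less any base in a GENCODE M21 exon, on the strand of the gene and 5′ to 3′: chr11:87793534-87793580 on the plus strand for Mpo, chr10:79886062-79886246 and chr10:79879417-79879613 on the plus strand for Elane and Prtn3, and chr15:102004483-102004592 on the minus strand for Krt8. That of Prtn3 lies within the GENCODE span of the gene, between annotated exons. Capitals mark the letters GGAAGT, a core bound by ETS factors such as the product of Spi1, or their reverse complement ACTTCC.
Mpo: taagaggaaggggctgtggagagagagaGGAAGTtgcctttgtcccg
Elane: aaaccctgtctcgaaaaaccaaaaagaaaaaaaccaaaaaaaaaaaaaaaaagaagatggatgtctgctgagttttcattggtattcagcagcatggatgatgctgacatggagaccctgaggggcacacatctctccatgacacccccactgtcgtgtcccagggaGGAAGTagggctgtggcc
Prtn3: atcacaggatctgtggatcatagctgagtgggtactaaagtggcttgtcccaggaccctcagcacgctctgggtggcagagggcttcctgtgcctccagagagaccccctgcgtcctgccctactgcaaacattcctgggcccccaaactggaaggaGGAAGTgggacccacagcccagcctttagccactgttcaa
Krt8: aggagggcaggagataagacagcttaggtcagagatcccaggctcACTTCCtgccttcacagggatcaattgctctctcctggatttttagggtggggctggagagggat
Each of the 4 holds 1 match, Krt8 included, and 20.0% of 27025 RefSeq promoters hold at least 1 in the full 250 bases on either strand. A match is a description of the letters and not of binding.

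Megakaryocyte and lymphoid genes were also read in HSC. Of 14 megakaryocyte and erythroid genes tested, 7 were higher in HSC, 4 of them large, and 3 higher in tumour, 2 of them large. The shares of all genes tested in these directions were 34.9% and 38.1% called, and 3.19% and 12.9% large. Gp5, a platelet glycoprotein, had 162, 108 and 259 scaled reads in HSC and 3.42, 3.03 and 1.81 in tumours. Ppbp, a platelet chemokine, had 53.9, 43.1 and 39.6 in HSC and 1.14, 1.01 and 0.903 in tumours. Itga2b, the platelet integrin also present on early progenitors, had 1329, 1448 and 2674 in HSC, highest in replicate 3, and 89, 172 and 103 in tumours. Haemoglobin genes lay on the tumour side, with Hbb-bs at 2446, 1621 and 4599 in tumours and 1.42, 9.24 and 3.08 in HSC, and the near-identical haemoglobin copies make single values uncertain. Of 10 lymphoid genes tested, Dntt, Flt3 and Il12a were among those large toward HSC. Ebf1 and Blnk, known from B cells, were large toward tumour. Ebf1 had 204, 320 and 270 in tumours and 1.42, 1.54 and 6.16 in HSC. In tumours Cd79a and Ms4a1 were low, while Ighm had at least 393 in each. The difference of Hbb-bs went from 9.14 to 9.74 without HSC replicate 2, and that of Il12a from -4.34 to -5.20 without tumour replicate 2.

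Pan-leukocyte genes were higher in HSC with 1 exception. Of 26 tested, 25 were higher in HSC, 16 of them large, with a median of -3.51. Spn, the sialophorin of blood cells, had 13672, 14340 and 17342 scaled reads in HSC and 169, 114 and 114 in tumours. Ptprc, the leukocyte antigen CD45, had 7905, 8641 and 8940 in HSC and 903, 1156 and 1283 in tumours. Coro1a, an actin regulator of leukocytes, had 15983, 13678 and 13133 in HSC and 676, 905 and 1122 in tumours. Tumours thus held leukocyte RNA, while the HSC mean was 7.63 times the tumour mean for Ptprc and 15.8 times for Coro1a, and no tumour reached the lowest HSC library at any of the 25. Cd52, a small glycoprotein of mature lymphocytes and monocytes, was the 1 tumour-high member, with 316, 340 and 442 in tumours and 204, 213 and 194 in HSC.

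Families of actin regulators showed opposite members in the tissues. Among kindlins, which activate integrins, Fermt2 had 5403, 3874 and 4246 scaled reads in tumours and 5.68, 1.54 and 1.76 in HSC. Fermt3, the blood cell kindlin, had 326, 373 and 465 in tumours and 6673, 6507 and 8174 in HSC. Fermt2 differed by 10.27 ± 0.40 and Fermt3 by -4.20 ± 0.18 (log2, SE), with adjusted p of 9.85e-06 and 1.22e-05 by limma. For the WAVE complex subunit Nckap1 and its hematopoietic relative Nckap1l the differences were 5.05 and -2.80. For the fimbrins Pls3 and Lcp1, which bundle actin, they were 3.70 and -2.65. Within each of these pairs, tumours and HSC did not overlap at either member, as at 78.2% of all genes tested.

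Rac family GTPases and the factors that load them had members of either direction. Rac2, restricted largely to blood cells, had 7032, 6024 and 6956 scaled reads in HSC and 263, 359 and 452 in tumours. Rac3 had 7.1, 13.9 and 1.76 in HSC and 457, 321 and 211 in tumours. Rac1, which nearly all cells use, differed by -0.49. Vav1 and Dock2, exchange factors of leukocytes, were higher in HSC, with log2 differences of -4.32 and -3.61. Their relatives Vav2 and Dock1 were higher in tumour, by 1.15 and 2.12. Was and its widely expressed relative Wasl, both of which start actin branching, differed by -4.81 and 1.32. The tumour-high members Vav2, Dock1 and Wasl were short of a large difference, and HSC held at least 433 scaled reads of each in every library. Of all 22 genes of this list, 12 were higher in HSC, 6 of them large, 9 were higher in tumour, 5 of them large, and Arhgdia was not called. Over all genes tested, 34.9% were called higher in HSC and 38.1% higher in tumour, and 3.19% and 12.9% were large. Rac3 differed by 5.51 with all libraries and by 4.82 without HSC replicate 3.

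**Figure D4:**
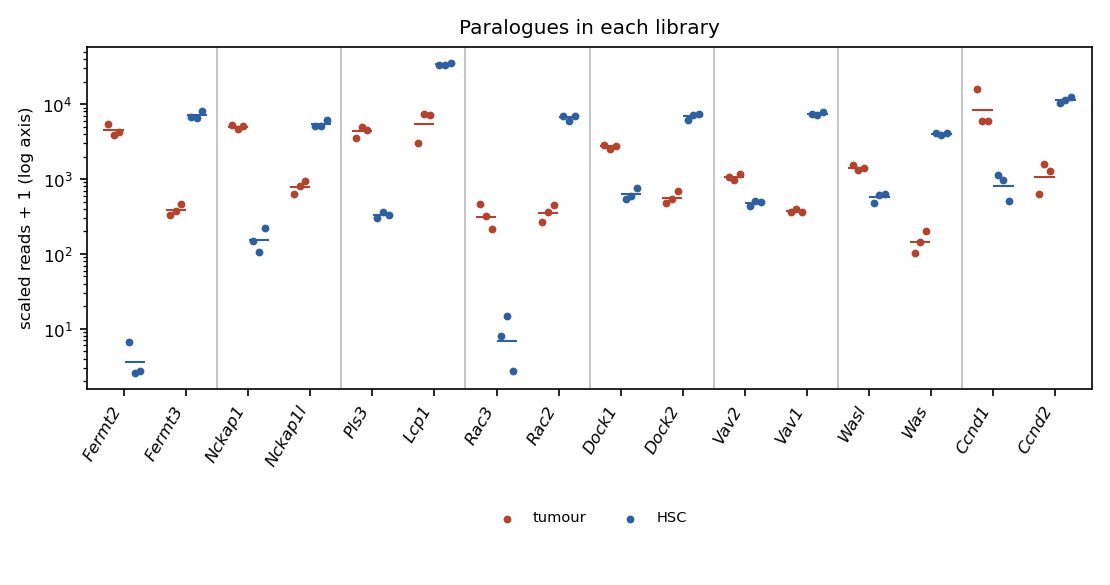
Scaled reads + 1 on a log axis for 8 pairs of related genes, with 3 tumours in red, 3 HSC libraries in blue and a line at the geometric mean. In each pair the first gene is higher in tumours and the second higher in HSC, from Fermt2 and Fermt3 at the left to Ccnd1 and Ccnd2 at the right.

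Integrins divided in the same manner. Of 24 tested, 14 were higher in tumour, 8 of them large, 6 were higher in HSC, 4 of them large, and 4 were not called. Itgb8, a TGF-beta activating chain of epithelia, had 1215, 1245 and 1380 scaled reads in tumours and 0, 0 and 0.44 in HSC. Itgb4, the hemidesmosome chain, had 9390, 3922 and 5134 in tumours and 56.8, 52.4 and 30.8 in HSC. The large HSC-high members were Itga4, Itgal, Itgb7 and Itga2b. Itgal, a chain of the leukocyte integrin LFA-1, had 3555, 3678 and 4014 in HSC and 292, 282 and 304 in tumours. Itgb7, a partner of Itga4, had 1452, 1285 and 1743 in HSC and 29.7, 111 and 131 in tumours. Itgb1, the shared chain of many integrins, differed by 0.40 on the log2 scale. Itgb7 differed by -4.27 with all libraries and by -3.60 without tumour replicate 1.

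Genes of DNA replication and mitosis were higher in HSC at 29 of 30 tested, with a median of -2.48. Mcm3, a subunit of the replication helicase, had 15341, 14457 and 15141 scaled reads in HSC and 1877, 1248 and 1064 in tumours. Bub1, a kinase of the mitotic checkpoint, had 3961, 3744 and 3879 in HSC and 534, 375 and 266 in tumours. Mki67, the proliferation antigen, had 20729, 30327 and 31082 in HSC and 7703, 5208 and 4739 in tumours. Replicate 1 was the highest tumour at all 3. Tyms was the member not called. Only 7 of the 29 were large, all in HSC, and this number fell to 4 without tumour replicate 3 and to 2 with total-read scaling.

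The D cyclins, which start the cycle with Cdk4 and Cdk6, differed in level between the tissues, with opposite directions for Ccnd1 and Ccnd2. Ccnd1 had 15816, 6037 and 6044 scaled reads in tumours and 1117, 965 and 508 in HSC. Ccnd2 had 622, 1598 and 1262 in tumours and 10247, 11482 and 12309 in HSC. Ccnd3 was higher in HSC, with a log2 difference of -2.07. Among CDK inhibitors, Cdkn2a and Cdkn2b, adjacent inhibitors of Cdk4 and Cdk6, were large toward tumour, and both had at most 1.76 scaled reads in any HSC library. Cdkn2a had 548, 90.8 and 69.5 in tumours, and its log2 difference of 6.77 became 5.87 without tumour replicate 1. Cdkn2b had 731, 118 and 242 in tumours, and its difference of 7.51 became 6.84 without tumour replicate 1 and 8.12 without tumour replicate 2. Tumour replicate 1 was the highest in Ccnd1 too. Cdkn1b, the inhibitor p27, was higher in tumour by 2.32, and the difference of Cdkn2d, higher in HSC, was -1.67.

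Interferon response genes were higher in tumour at all 18 tested, 13 of them large, with a median of 6.35. Ifit1, an RNA-binding antiviral protein, had 1574, 1496 and 1817 scaled reads in tumours and 5.68, 1.54 and 0.44 in HSC. Irf7, the factor that amplifies the response, had 5784, 4477 and 6260 in tumours and 12.8, 21.6 and 15 in HSC. Ifi44 had 2496, 2181 and 2630 in tumours and 9.94, 9.24 and 2.2 in HSC. All 18 were free of overlap between the tissues, as were 78.2% of all genes tested. Stat2, which carries the signal, was called but short of a large difference, at 2.05. Ifitm1, outside this list, was the exception described above and lay far on the HSC side. Ifit1 and Ifi44 differed by 9.13 and 8.42, or by 9.78 without HSC replicate 1 for Ifit1, and 7.82 without HSC replicate 3 for Ifi44.

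Immediate early genes, which are induced within minutes by growth factors and also by tissue handling, were higher in tumour at 18 of 20, 7 of them large. Egr1 had 2638, 1569 and 2280 scaled reads in tumours and 39.8, 40.1 and 61.6 in HSC. Egr2 had 122, 325 and 320 in tumours and 0, 1.54 and 5.28 in HSC. Fosl1 was higher in HSC, with a log2 difference of -2.81, and Junb was not called. Of 6 RNAs that can move with RNA preparation, 3 were higher in tumour, 2 of them large, and Xist, Lars2 and Kcnq1ot1 were not called. Malat1, a nuclear RNA, had 27771, 21990 and 40188 in tumours and 3447, 7678 and 5941 in HSC. Neat1 had 31688, 31073 and 46729 in tumours and 4222, 6695 and 2430 in HSC. Rn45s, the precursor of ribosomal RNA, is listed in the HSC table only and had 21307, 22104 and 105357 there, far higher in replicate 3. The part of RNA preparation in these differences was not tested. Egr2 differed by 6.54 with all libraries and by 5.89 without HSC replicate 1.

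Metabolic lists held few large differences, and their small shifts depend on the scaling. Of 23 fatty acid and sterol genes, 5 were higher in tumour and 8 in HSC, and Scd1 and Me1 were the large members. Among all genes tested, 38.1% and 34.9% were called in these directions, and 12.9% were large toward tumour and 3.19% toward HSC. Scd1, a stearoyl-CoA desaturase of liver, fat and gland, had 31312, 21526 and 49079 scaled reads in tumours and 73.8, 94 and 274 in HSC. Its paralogue Scd2 had 18235, 11803 and 19272 in tumours and 15128, 15841 and 18671 in HSC. Fasn, the fatty acid synthase, had 40726, 15115 and 27290 in tumours and 22046, 27377 and 33512 in HSC, with overlap between the tissues at both Scd2 and Fasn. Of 24 hypoxia and glycolysis genes only Aldoc, an aldolase known from brain, was large, with 12005, 9674 and 7338 in tumours and 34.1, 47.8 and 105 in HSC. Car9, a hypoxia-induced carbonic anhydrase, had 2340, 311 and 272 in tumours and 125, 129 and 96.3 in HSC, a difference of 2.32 ± 0.83 (SE; limma, adjusted p = 0.0442). Without tumour replicate 1 this difference was 1.32, and without HSC replicate 1, 2 or 3 its adjusted p by limma was 0.0951, 0.0882 or 0.108. Of 30 oxidative phosphorylation genes, 14 were higher in HSC, 1 was higher in tumour and 15 were not called, with a median of -0.36. None was large, although the tumour-high member Cox7a1, a muscle and fat subunit, came close at 2.93. However, 1 member was large without HSC replicate 1 or HSC replicate 2.

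The same contrast was then read in active mice, whose libraries had no part in the counts above but are in the same 2 tables. There, 7185 genes were called (57.8% of 12429 tested), and 1429 (11.5%) and 303 (2.44%) were large toward tumour and HSC. Of the 1608 genes large toward tumour in sedentary mice, 1283 were large in active mice too, which is 79.8% of the sedentary and 89.8% of the active set. Of the 397 large toward HSC, 236 were, which is 59.4% and 77.9%. The sign was the same for 1601 of 1608 and 394 of 397 genes. Krt8 differed by 12.90 in active mice against 12.67 in sedentary mice, Myb by -5.47 against -6.13, and Fermt2 by 11.28 against 10.27. The identity of HSC replicate 2 of active mice is in doubt, because the HSC tables give the library of that number under different column names, and without it 6653 genes were called.

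The interaction term of limma over all 12 libraries tested whether the tissue contrast itself differed between active and sedentary mice. It was past the threshold for 17 of 12429 genes (0.137%), with 754 at an unadjusted p under 0.05, and edgeR on the recovered reads called 17 as well, 16 of them shared. Without HSC replicate 2 of active mice, the library in doubt, 14 genes were past it, and the same number with the replicate number as a block, all of them among the 17. Most of the 17 are known from striated muscle, and the 7 that belong to the muscle list are Myoz1, Actn3, Tnni2, Neb, Mylpf, Ryr1 and Ttn. Ttn was not past the threshold without that library (limma adjusted p = 0.134), and the other 6 were. For Mylpf the tissue difference in active mice minus that in sedentary mice was -7.51 ± 0.89 (SE) on the log2 scale (adjusted p = 0.012, limma). On the scale of all 12 libraries Mylpf had 4777, 2921 and 3143 in sedentary and 58.2, 14.1 and 29.8 in active tumours. Every sedentary tumour was thus above every active tumour at Mylpf. At all 7 genes the log2 difference between tumour and HSC, large in sedentary mice, was below 3 in active mice. Hoxa9, Dntt and Flt3 had tissue differences of -2.44, -4.34 and -2.26 in active mice against -6.21, -9.12 and -5.94 in sedentary mice. None of them was past the threshold of the interaction. In active mice the difference of Dntt had an SE of 2.48 and was not called (limma adjusted p = 0.179).

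**Figure D5:**
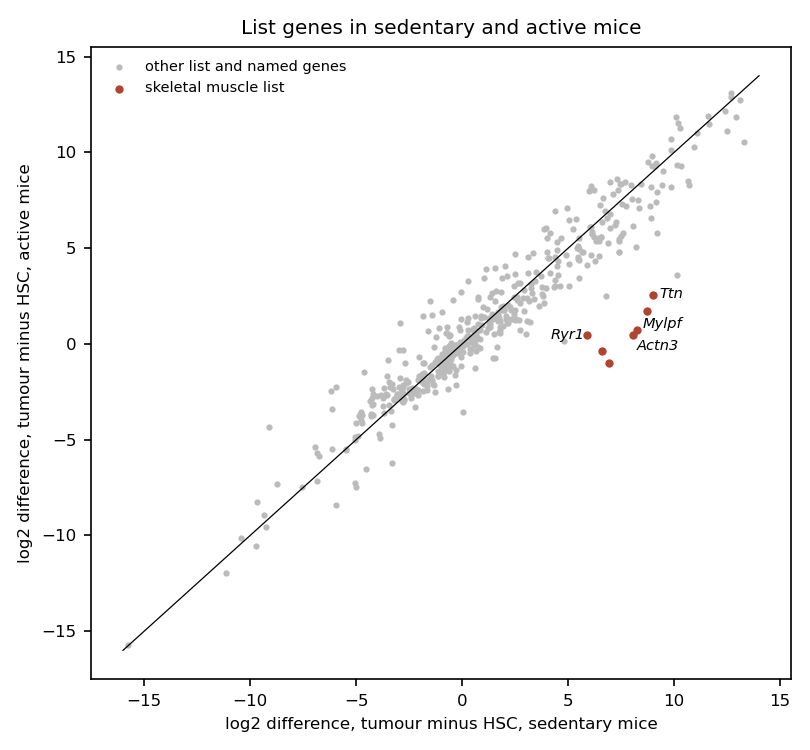
Log2 difference (tumour minus HSC) in sedentary mice on the x axis and in active mice on the y axis for genes of the lists and other named genes, with the line of equal values. The 7 muscle list genes, in red, lie above 5 on the x axis and below 3 on the y axis, and most other genes lie along the line.

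Many of the strongest identity genes are outside the comparison because only 1 table lists them under that symbol. The tumour table held 6812 symbols that the HSC table did not, 556 of them with over 1000 reads in a sedentary tumour, and the HSC table held 1063 that the tumour table did not, 301 of them with over 1000 reads in a sedentary HSC library. Of the 13513 genes in the HSC table, 13498 had at least 10 reads in 1 or more of its libraries. A gene with few reads in every HSC library was thus mostly not listed there. Symbols in the tumour table only include Ehf, Cldn3 and Elf5, all epithelial, and Ehf had 15449, 16274 and 12146 scaled reads in tumours. A different name was the other way out, since 564 (53.1%) of the HSC-only symbols are another name of a tumour-only symbol in RefSeq. With these names joined, 12990 genes were tested, 1689 were large toward tumour and 416 toward HSC.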

How the data were processed

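A strand-marking kit for polyadenylated RNA was used for all libraries, per the labels' protocols. The authors deposited per-library signal values, gene counts divided by 1 factor per library, in 1 table for week 12 tumours and 1 for week 12 HSC, on genome build mm10 per the submitters' processing notes. The aligner, counter and annotation are not given in the sources used here. Reads were recovered from the smallest step between values of each library, and all values were whole within 0.1 reads. Genes were joined on symbols held once in both tables. The 6 libraries were scaled together by the median of ratios, and log2(value + 1) was fitted with limma 3.58.1 in R 4.3.3, over genes averaging 1 or more in at least one tissue, with Benjamini-Hochberg adjustment over all genes at 0.05. A fold change on this scale understates the change of low genes. The script was tested on simulated data. Count tests on the recovered reads used edgeR 4.0.16 and DESeq2 1.42.0. Named genes are the 8 largest non-overlapping differences in each direction with a mean of at least 500, up to 3 members per list with a mean of at least 50, and any member of small families, and all others were named after their values were seen. The members and lists were chosen with earlier results of these data known. Bounds, ratios and intervals cover counting error only, and levels per kilobase use exon lengths of GENCODE M21. Nothing in the labels says that same-numbered libraries share a mouse, and p-values measure the spread between these libraries. Promoters are shown for 4 genes only, because fewer than 80% of large-difference genes had one in the RefSeq table. Week 18 tumours and transplant HSC were not analysed here, and some list members are not reported here.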

Additional observations from a re-analysis of the deposited data

Results flagged for a closer look

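At 7 skeletal muscle genes the difference between tumour and HSC itself differed between active and sedentary mice, by the interaction term of limma over 12 libraries with Benjamini-Hochberg adjustment. The tissue difference in active mice minus that in sedentary mice was -7.92 for Myoz1, -7.60 for Actn3, -7.51 for Mylpf, -7.01 for Tnni2, -6.98 for Neb, -6.44 for Ttn and -5.40 for Ryr1 on the log2 scale. Myoz1 anchors sarcomere proteins at the Z line, Tnni2 is the troponin I of fast fibres, Neb sets thin filament length and Ryr1 releases calcium. Without HSC replicate 2 of active mice, whose identity is in doubt, Ttn missed the threshold (limma adjusted p = 0.134). On the common scale Ttn had 11211, 4693 and 7920 scaled reads in sedentary tumours and 179, 33.6 and 249 in active tumours. Tumour replicate 1 was the highest sedentary library at all 7 genes. The part of muscle tissue taken with the tumours was not tested.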

How the results depend on the processing

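Of 74 alternative counts over all genes, 70 stayed within 1.5 times the main count. Testing against a fold of 8 itself gave 948 large differences toward tumour and 200 toward HSC, a fold of at least 4 gave 1000 toward HSC and one of at least 16 gave 197. Leaving out 1 library at a time gave 8287 to 8885 called genes, 1550 to 1651 large toward tumour and 388 to 412 large toward HSC. Replicates 1 and 2 alone, without the HSC library that is deepest and named in another style, gave 1637 and 391. Joining older symbols, chosen after seeing the data, gave 1689 and 416. With the replicate number as a block, 8729 genes were called and 1609 and 397 were large. Same-numbered deviations correlated at 0.0146, 0.0316 and 0.0792, and differently numbered ones at -0.0601 to 0.0211. Deviations from a mean of 3 libraries cannot tell whether mice were shared. The labels give no pairing, so the libraries were treated as unpaired. Among named genes 6 values missed the threshold, all of them for Car9 (pseudocount 0.1, limma-voom, any HSC library left out, or replicates 1 and 2 alone). The median of the T cell list was -2.26 with a mean of at least 50 required and ran from -0.044 to 0.51 when 1 library was left out, the lowest without tumour replicate 2. That of the B and plasma cell list was -2.97 with a mean of at least 50 required, which is the value of Cd79b alone. It ran from 0.17 to 2.00 when 1 library was left out, the lowest without HSC replicate 1. The D cyclin and CDK inhibitor list reached 0.036 and the hypoxia and glycolysis list 0.076 with total-read scaling, and the former ran from -0.40 to 0.093 when 1 library was left out, the highest without tumour replicate 2. The causes were not tested.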
